A study of Mus musculus with 12 samples.

Results

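The genes examined were 5 chemokine receptors, Ccr7, Ccr1, Ccr2, Cxcr4 and Cx3cr1, and Fscn1, which encodes the actin-bundling protein fascin. They were picked by gene name from the 41709 genes counted in each library, with no threshold on a measured value, and all 6 passed the filter on low counts in every comparison. Earlier results of these data were known at the choice, so the shares of all genes given beside them are a description only. Reads of these genes were compared in bone marrow-derived dendritic cells (BMDCs), cultured for 10 days with GM-CSF and enriched for MHCII-positive cells on magnetic beads. The cells came from CD18fl/fl mice, which are homozygous for a floxed allele of the β2 integrin gene Itgb2 and carry no Cre, and from CD18ΔCD11c mice (CD18-delta-CD11c in the labels), which carry the same floxed alleles and in addition a Cre that the CD11c promoter drives and that cuts out exon 3. All 4 groups thus share the floxed allele. Cells of either genotype were left untreated or received 100 ng/mL LPS for 24 h (the study's methods speak of overnight stimulation), with 3 libraries in each of the 4 groups. No source states whether the libraries of a group come from separate mice or cultures, so that p-values measure the spread between these libraries, which may be in part technical.

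Chemokine receptors are membrane-spanning receptors that couple to inhibitory G proteins and steer leukocytes along gradients of small secreted ligands. In dendritic cells, CCR1 and CCR2 are known from immature cells and monocytes that enter inflamed tissue, whereas CCR7 on mature cells reads CCL19 and CCL21 and directs them through lymph vessels to the T cell zone of lymph nodes. CXCR4 binds CXCL12 and retains cells in the bone marrow, and CX3CR1 binds the membrane-bound ligand CX3CL1 and marks monocyte-derived cells. Fascin bundles actin filaments in the dendrites of mature dendritic cells and is a classical companion of CCR7.

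Between 29689149 and 34037178 gene reads were counted per library, which puts the floor of 3 reads at 0.0752 to 0.135 CPM, where CPM are counts scaled by library size after TMM normalisation over the 12 libraries. This floor covers counting error only, as PCR copies were not marked. Markers of dendritic cells were high throughout, with a summed level of 10 genes between 11515 and 30659 CPM. In all 4 groups, however, replicate 3 had the lowest sum of these markers, at most 16831 CPM beside at least 17674 CPM in the other libraries. This gap was narrow, and in untreated CD18ΔCD11c BMDCs replicate 2 (18637 CPM) lay nearer to replicate 3 (16831 CPM) than to replicate 1 (26586 CPM). Markers of B cells and of basophils and mast cells set replicate 3 further apart. The 5 B cell markers summed to between 0.636 and 2.54 CPM in the replicate 3 libraries and to between 8.64 and 138 CPM in the other libraries. The 5 basophil and mast cell markers summed to between 38.3 and 164 CPM in replicate 3 and to between 8.18 and 15.0 CPM in the others. The 10 neutrophil markers reached 1332 CPM in replicate 1 of untreated CD18fl/fl BMDCs and 10.7 to 195 CPM elsewhere. B cells also use CCR7 and CXCR4, and the part of these other cells in the results was not tested. In such bulk samples, fewer cells of a type and less RNA per cell cannot be told apart. Itgb2 reads, which include the exons that the Cre leaves in place, were lower in CD18ΔCD11c (120, 163 and 189 CPM in replicates 1 to 3 when untreated) than in CD18fl/fl BMDCs (382, 420 and 379 CPM), and after LPS they were 114, 89.7 and 119 against 167, 171 and 266 CPM. The Itgb2 difference passed with the replicate number as a block (edgeR adjusted p = 0.00392 and 0.0201) and not without it (adjusted p = 0.0887 and 0.428).

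Promoter sequences help to place the genes that the following results turn on, namely Ccr1 and Ccr2, whose reads both fell after LPS, with Cxcr4 and Fscn1 for comparison. RefSeq's promoter table (build GRCm38.p6) held 5 of the 6 genes, all except Ccr7. The 250 bases before the annotated start lie at chr9:123968693-123968942 on the minus strand for Ccr1, chr9:124101933-124102182 on the plus strand for Ccr2, chr1:128592300-128592549 on the minus strand for Cxcr4 and chr5:142960105-142960354 on the plus strand for Fscn1. They are printed from 5′ to 3′, with every match to a searched motif in capitals.
Ccr1: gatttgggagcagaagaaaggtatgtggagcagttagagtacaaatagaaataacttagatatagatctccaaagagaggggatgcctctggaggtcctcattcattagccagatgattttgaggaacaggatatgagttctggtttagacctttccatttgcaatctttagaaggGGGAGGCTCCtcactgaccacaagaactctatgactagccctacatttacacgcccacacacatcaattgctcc
Ccr2: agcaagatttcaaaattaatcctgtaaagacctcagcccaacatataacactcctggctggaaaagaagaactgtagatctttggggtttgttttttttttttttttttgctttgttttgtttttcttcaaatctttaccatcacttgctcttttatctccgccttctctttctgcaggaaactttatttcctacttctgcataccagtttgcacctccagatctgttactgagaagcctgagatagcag
Cxcr4: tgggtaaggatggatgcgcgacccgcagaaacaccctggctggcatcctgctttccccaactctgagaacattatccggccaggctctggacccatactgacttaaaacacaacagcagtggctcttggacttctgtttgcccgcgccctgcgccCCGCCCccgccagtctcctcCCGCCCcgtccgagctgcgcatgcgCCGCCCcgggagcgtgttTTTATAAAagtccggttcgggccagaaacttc
Fscn1: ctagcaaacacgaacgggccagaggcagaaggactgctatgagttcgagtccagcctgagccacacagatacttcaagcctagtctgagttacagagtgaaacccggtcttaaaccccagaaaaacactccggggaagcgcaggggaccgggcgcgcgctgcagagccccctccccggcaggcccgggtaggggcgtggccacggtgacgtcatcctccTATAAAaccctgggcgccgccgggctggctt
Searched on both strands were the core promoter motif TATAAA, the AP-1 motif (TGANTCA), the PU.1 motif (GAGGAAG), that of the GC box (GGGCGG) and the NF-κB consensus. Among the 32851 windows of the table, they occurred in 12.4%, 6.75%, 10.6%, 32.7% and 7.25%, respectively. The Ccr1 window held a NF-κB match from base -74 to base -65 before the start, and the Ccr2 window held no match to any of the motifs. The Cxcr4 window held 3 GC boxes and a TATA stretch that matched on both strands. The match on the gene's strand ran from base -30 to base -25, and that on the other strand from base -32 to base -27. Fscn1 had a TATA box from base -31 to base -26, and Cx3cr1, not shown, had no match. The windows of Cxcr4 and Fscn1 were rich in G and C (61.2% and 62.4%), and those of Ccr1 and Ccr2 were not (43.6% and 37.2%).

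Per length of exon, Ccr7 was the most abundant of the 6 transcripts in 10 of the 12 libraries. Its mean RPKM (CPM per kilobase of exon) was 804 ± 591 (SD, n = 3) in untreated and 1085 ± 413 in LPS-treated CD18fl/fl BMDCs, and 589 ± 437 and 705 ± 116 in the corresponding CD18ΔCD11c groups. Ccr1 took the highest place in the other 2 libraries, which were both untreated replicates 3. Its RPKM was 187 ± 11.6 and 52.6 ± 0.548 in CD18fl/fl and 330 ± 68.2 and 139 ± 29.5 in CD18ΔCD11c BMDCs, untreated and LPS-treated, respectively. Cx3cr1 was the least abundant in 11 of the 12 libraries, with group means between 0.251 and 0.972 RPKM. Fscn1 (92.7 to 174 RPKM), Cxcr4 (35.3 to 296 RPKM) and Ccr2 (0.743 to 69.1 RPKM) had group means in the ranges given.

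**Figure D1:**
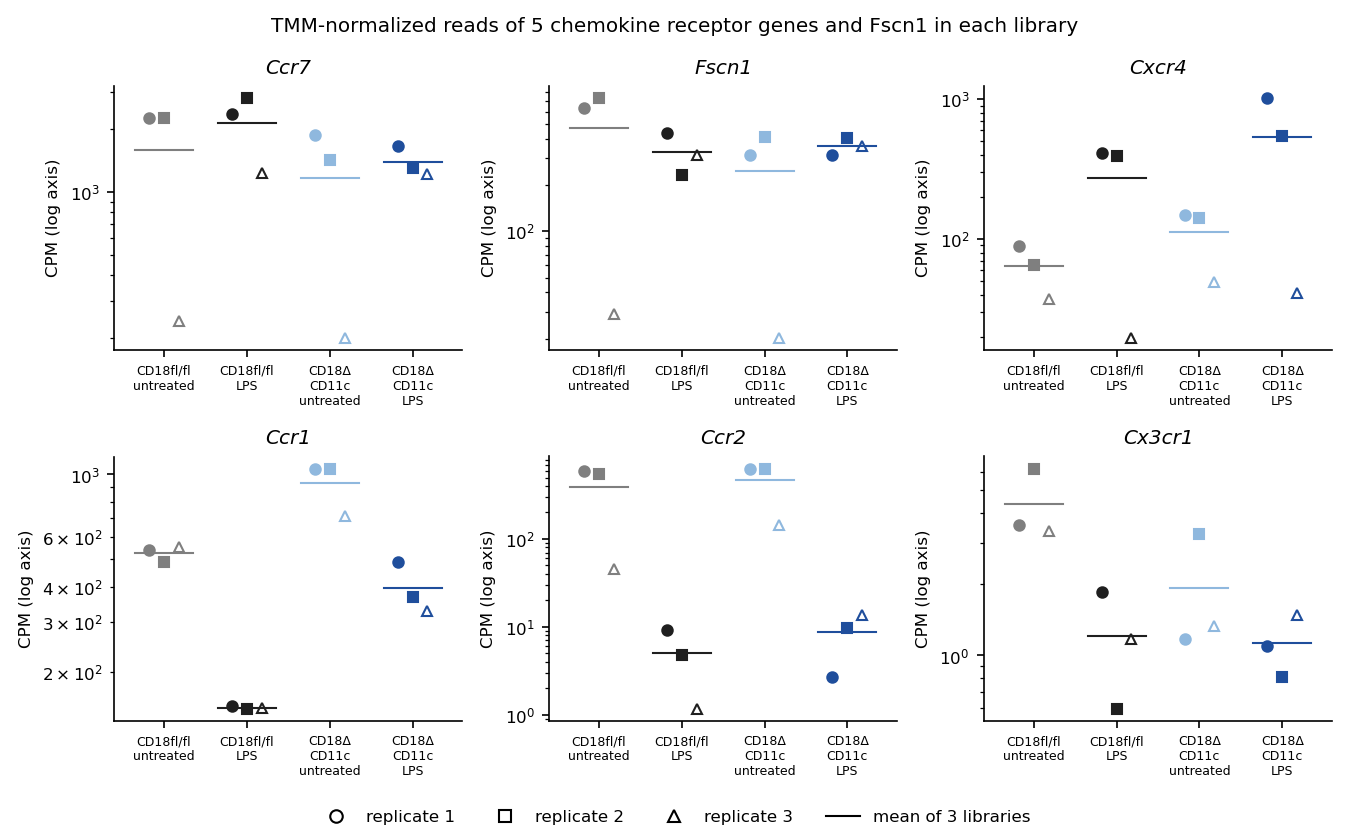
CPM of each gene (log axis) in the 12 libraries by group, with replicates 1, 2 and 3 as circles, squares and open triangles and the group mean as a line. Ccr1 and Ccr2 lie lower in every LPS library than in any untreated library of the same genotype, and the replicate 3 libraries of Ccr7, Fscn1, Cxcr4 and Ccr2 often lie far from replicates 1 and 2.

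To find out how LPS shifts these receptors, the 3 LPS and the 3 untreated libraries of CD18fl/fl BMDCs were compared with edgeR's quasi-likelihood test after Benjamini-Hochberg adjustment over all 12744 genes tested, at a threshold of 0.05. Ccr2 and Ccr1 fell, and the other 4 genes did not pass the threshold. These 2 of 6 genes compare with 1.83% of all tested genes that were called lower, 2.06% called higher and 3.89% called in either direction. The same 2 genes fell in CD18ΔCD11c BMDCs, where 1.76% of 12687 genes were called lower, 2.23% higher and 3.99% in either direction. The balance of all calls depended on the scaling, as edgeR called 263 genes higher and 233 lower in CD18fl/fl and 283 and 223 in CD18ΔCD11c BMDCs with TMM, but 143 and 304 and 186 and 300 with library-size scaling, under which Ccr1 and Ccr2 fell as well. The summed level of 5 plasmacytoid dendritic cell markers also moved with LPS, from between 258 and 407 CPM untreated to between 857 and 1248 CPM in the 2 genotypes. Most of it was Bst2, an interferon-inducible gene, which had at least 835 CPM in every LPS library, whereas Siglech, a defining marker of these cells, had at most 0.249 CPM in any library. The part of these markers in the results was not tested.

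Ccr2, the receptor for CCL2 and its relatives (chr9:123901987-123913594, plus strand, coordinates as deposited, GRCm39), was almost lost from the transcriptome after LPS. In CD18fl/fl BMDCs, its reads went from 597, 542 and 45.7 CPM in untreated replicates 1, 2 and 3 to 9.15, 4.76 and 1.17 CPM after LPS. In CD18ΔCD11c BMDCs, they went from 625, 633 and 144 CPM to 2.71, 9.70 and 13.6 CPM. Hence the highest LPS library of each genotype lay well below the lowest untreated library, although the latter, replicate 3, held a fraction of the level of its group. The log2 fold change was -6.30 ± 1.23 (SE, edgeR adjusted p = 0.0426) in CD18fl/fl and -5.78 ± 0.86 (adjusted p = 0.0226) in CD18ΔCD11c BMDCs. With replicates 1 and 2 alone, it was -6.35 (adjusted p = 6.87e-08) and -6.78 (adjusted p = 0.00343) in the same edgeR test. Calls were common in that fit, with 6140 of 12924 genes in CD18fl/fl (3000 higher and 3140 lower) and 2049 of 12872 in CD18ΔCD11c BMDCs (1021 higher and 1028 lower). At least 95.7% of its reads were unique in each library, which bears on the sharing of reads with related receptor genes.

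Ccr1, a receptor for CCL3, CCL5, CCL6 and CCL9 (chr9:123762161-123768729, minus strand), fell less steeply but most evenly. Untreated CD18fl/fl BMDCs had 541, 491 and 553 CPM in replicates 1, 2 and 3, and LPS-treated cells had 151, 148 and 148 CPM. Untreated CD18ΔCD11c BMDCs had 1045, 1050 and 713 CPM, and LPS-treated cells had 489, 367 and 328 CPM. Neither genotype showed an overlap of the groups, and replicate 3 stood apart only in untreated CD18ΔCD11c BMDCs. The log2 fold change was -1.82 ± 0.22 (edgeR adjusted p = 0.0162) in CD18fl/fl and -1.30 ± 0.27 (adjusted p = 0.0471) in CD18ΔCD11c BMDCs. With RLE size factors, the latter missed the threshold (adjusted p = 0.0506), and with replicates 1 and 2 alone both calls held (-1.79, adjusted p = 6.73e-06, and -1.39, adjusted p = 0.0116).

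These 4 calls were lost when single libraries were left out. In CD18fl/fl, no gene at all was called once any of replicates 1 and 2 of either group was left out, and the adjusted p then rose to between 0.0840 and 0.101 for Ccr1 and between 0.133 and 0.174 for Ccr2. In CD18ΔCD11c, leaving out any of these libraries ended both calls as well, with an adjusted p between 0.125 and 0.201 for Ccr1 and between 0.0681 and 0.117 for Ccr2. Without LPS replicate 3 of CD18ΔCD11c, the adjusted p of Ccr1 was 0.0560.

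Ccr7 (chr11:99035022-99045903, minus strand) showed no call for LPS in either genotype. Untreated CD18fl/fl BMDCs had 2267, 2265 and 241 CPM in replicates 1, 2 and 3, compared with 2378, 2823 and 1238 CPM after LPS. Untreated CD18ΔCD11c BMDCs had 1867, 1430 and 199 CPM, compared with 1654, 1308 and 1219 CPM after LPS. Thus replicates 1 and 2 carried high levels before any LPS, whereas replicate 3 started low and was higher after LPS. Within the libraries of the same number, LPS gave 1.05, 1.25 and 5.14 times the untreated level in CD18fl/fl and 0.886, 0.915 and 6.11 times in CD18ΔCD11c BMDCs. The log2 fold change was 0.43 ± 0.76 (edgeR adjusted p = 0.768) and 0.21 ± 0.67 (adjusted p = 0.898), respectively, and with replicates 1 and 2 alone it was 0.20 (adjusted p = 0.426) and -0.26 (adjusted p = 0.504).

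Fscn1 (chr5:142946098-142958940, plus strand) followed the same split of the replicates. Its level in CD18fl/fl BMDCs was 634, 735 and 29.2 CPM untreated and 432, 231 and 313 CPM after LPS. In CD18ΔCD11c BMDCs, it was 314, 410 and 20.1 CPM untreated and 315, 407 and 357 CPM after LPS. Replicate 3 was the lowest library of both untreated groups, and after LPS it lay between or near replicates 1 and 2. The ratio of LPS to untreated within the same number was 0.682, 0.314 and 10.7 in CD18fl/fl and 1.01, 0.993 and 17.7 in CD18ΔCD11c BMDCs. No call was made over 3 libraries (log2 fold change -0.52 ± 0.94, edgeR adjusted p = 0.775, and 0.49 ± 0.84, adjusted p = 0.792). In replicates 1 and 2 of CD18fl/fl alone, Fscn1 was lower after LPS (-1.05, edgeR adjusted p = 0.00509), with -0.11 (adjusted p = 0.794) in CD18ΔCD11c BMDCs. In CD18fl/fl, that fit called 3140 of 12924 genes lower.

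Cxcr4 (chr1:128515936-128520030, minus strand) went the opposite way in the replicates. In CD18fl/fl BMDCs, 88.5, 65.5 and 37.5 CPM were measured untreated and 411, 395 and 19.5 CPM after LPS. In CD18ΔCD11c BMDCs, 147, 142 and 49.5 CPM were measured untreated and 1020, 543 and 41.4 CPM after LPS. After LPS, Cxcr4 thus stood at 4.65 and 6.02 times the untreated level in replicates 1 and 2 of CD18fl/fl and at 6.91 and 3.83 times in those of CD18ΔCD11c BMDCs, while replicate 3 stood at 0.520 and 0.836 times. Over 3 libraries, the log2 fold change of 2.11 ± 0.96 (edgeR adjusted p = 0.234) and 2.17 ± 0.96 (adjusted p = 0.251) did not pass. Without the LPS replicate 3 library, Cxcr4 was called higher in both genotypes (2.66, edgeR adjusted p = 0.00861, and 2.71, adjusted p = 0.0322), as it was with replicates 1 and 2 alone (2.39, adjusted p = 2.14e-06, and 2.33, adjusted p = 0.00855). The former fits called 1613 of 13206 and 545 of 13244 genes higher, and the latter 3000 of 12924 and 1021 of 12872.

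Cx3cr1 was near the limit of what this depth can show, with 16 to 247 reads per library. Its gene model in the deposited files spans chr9:119730682-119898945 (minus strand, 168264 bases) and overlaps 9 other genes, and between 10.1% and 100% of its reads lay in introns, so that its counts are uncertain. It had 3.58, 6.19 and 3.37 CPM in untreated and 1.86, 0.595 and 1.17 CPM in LPS-treated CD18fl/fl BMDCs, without overlap. In CD18ΔCD11c BMDCs, 1.17, 3.27 and 1.33 CPM untreated stood against 1.09, 0.808 and 1.49 CPM after LPS, and the groups overlapped. The log2 fold change was -1.85 ± 0.56 (edgeR adjusted p = 0.114) and -0.81 ± 0.69 (adjusted p = 0.564), while DESeq2 called the former (adjusted p = 0.0187), as did edgeR on replicates 1 and 2 alone (-1.98, adjusted p = 0.0121). These 2 fits called 896 of 12744 and 3140 of 12924 genes lower in CD18fl/fl. Groups without overlap, as for Ccr1, Ccr2 and Cx3cr1 in CD18fl/fl, were seen in 15.9% of all tested genes in the lower direction, and as for Ccr1 and Ccr2 in CD18ΔCD11c BMDCs in 13.4%.

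**Figure D2:**
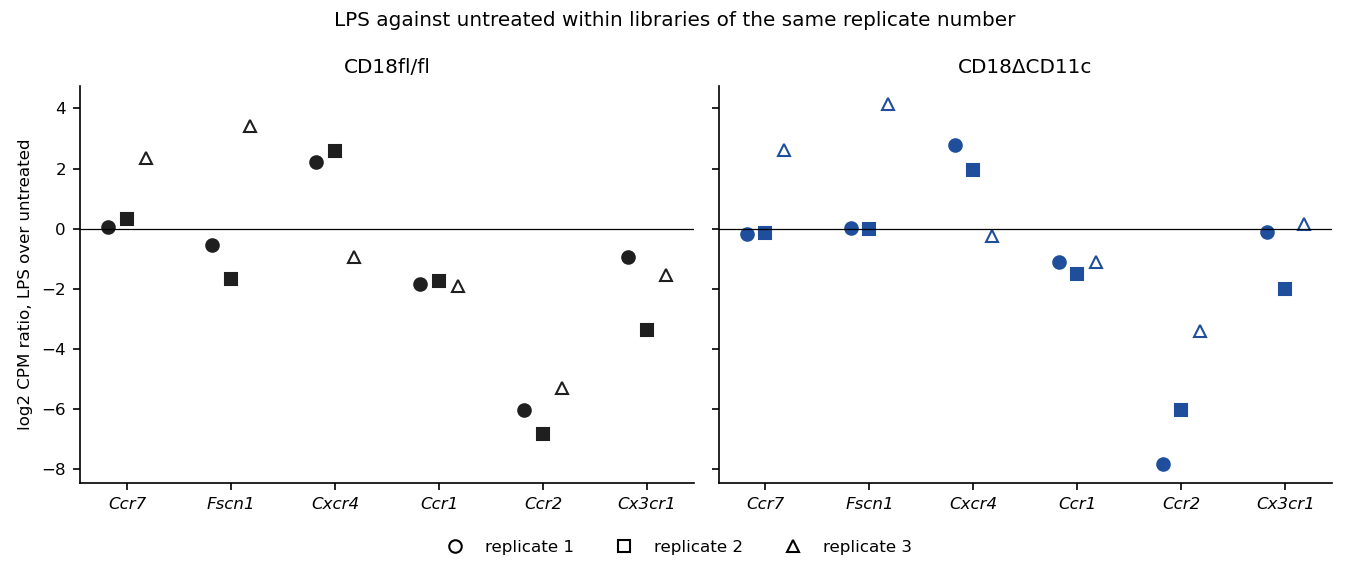
Log2 ratio of CPM after LPS to CPM untreated for each gene within libraries of the same replicate number, in CD18fl/fl (left) and CD18ΔCD11c BMDCs (right). All 6 ratios of Ccr1 and of Ccr2 are below 0, whereas replicate 3 (open triangles) departs from replicates 1 and 2 for Ccr7, Fscn1 and Cxcr4 in both genotypes.

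As same-numbered libraries deviated together, most clearly those of replicate 3, the comparison was also fitted with the number as a block. In edgeR, no call of the 6 genes for LPS was gained or lost. DESeq2 with the block, a fit added after seeing the data, also called Cxcr4 higher in CD18fl/fl BMDCs (1.43, adjusted p = 0.0481), which DESeq2 without it did not (2.15, adjusted p = 0.0672). With the block, DESeq2 called 3269 of 12744 genes there (1659 higher and 1610 lower). Ccr1 had an adjusted p of 0.00703 and 0.00581 and Ccr2 one of 0.00414 and 0.00686 in CD18fl/fl and CD18ΔCD11c BMDCs with the replicate block in edgeR, where 12.8% of all genes were called in CD18fl/fl (6.33% higher and 6.43% lower) and 20.2% in CD18ΔCD11c BMDCs (10.2% higher and 9.93% lower). The block turned the direction of Fscn1 in CD18fl/fl BMDCs from -0.52 to 0.17 (edgeR adjusted p = 0.923).

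The question of the study, whether loss of β2 integrins alters the transcriptome of BMDCs, was put to the 6 genes by comparing CD18ΔCD11c with CD18fl/fl BMDCs in either state. These comparisons use the same libraries as those for LPS and are not independent of them. Without the block, edgeR called 0 of 12876 genes in untreated cells (2159 at an unadjusted p under 0.05) and 0 of 12441 after LPS (1212 at an unadjusted p under 0.05), so that percent called was 0 in both states. DESeq2 called 846 and 313 genes, among them 1 of the 6 genes in each state, Ccr1. With the replicate block, edgeR called 20.2% of all genes in untreated and 10.1% in LPS-treated cells. Under the block, Ccr1 and Cxcr4 were higher in CD18ΔCD11c BMDCs in both states and Fscn1 was lower in untreated cells. These 3 of 6 and 2 of 6 genes are read against shares of 12.1% and 6.98% of all genes called higher and 8.16% and 3.16% called lower. Markers of macrophages and monocytes moved with the genotype too. The summed level of 10 such genes was between 1742 and 2189 CPM in LPS-treated CD18fl/fl and between 1168 and 1394 CPM in LPS-treated CD18ΔCD11c BMDCs, without overlap, and between 1230 and 1924 CPM and between 997 and 1295 CPM in untreated cells, which overlapped. Adgre1, which encodes the macrophage marker F4/80, had at least 407 CPM in every CD18fl/fl library and at most 357 CPM in every CD18ΔCD11c library. The part of these markers in the genotype results was not tested.

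Ccr1 was higher in CD18ΔCD11c in all 6 same-numbered pairs, and the groups did not overlap in either state, as in 11.7% of genes in untreated and 9.51% in LPS-treated cells in this direction. Without regard to direction, 24.8% and 17.6% of genes showed no overlap, and 13.1% and 8.1% lay lower. Untreated, its level was 1.93, 2.14 and 1.29 times that of CD18fl/fl BMDCs in replicates 1, 2 and 3, and after LPS it was 3.24, 2.48 and 2.21 times. The log2 fold change was 0.88 ± 0.22 (edgeR adjusted p = 0.151) untreated and 1.38 ± 0.25 (adjusted p = 0.286) after LPS. The block gave 0.86 ± 0.17 (adjusted p = 0.0151) and 1.36 ± 0.16 (adjusted p = 0.00663) in edgeR. DESeq2 without a block gave adjusted p-values of 0.0100 and 9.51e-06, and edgeR on replicates 1 and 2 alone called both (1.08, adjusted p = 0.0207, and 1.49, adjusted p = 0.0258). With replicates 1 and 2 alone, 1383 of 13068 genes were called in untreated cells (1034 higher and 349 lower) and 523 of 12390 after LPS (402 higher and 121 lower). The 4 groups thus fell in the order LPS-treated CD18fl/fl, LPS-treated CD18ΔCD11c, untreated CD18fl/fl and untreated CD18ΔCD11c, and the middle ones nearly touched (at most 489 against at least 491 CPM).

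Cxcr4 was also higher in CD18ΔCD11c in all 6 pairs, replicate 3 included. The ratio was 1.67, 2.16 and 1.32 untreated and 2.48, 1.38 and 2.12 after LPS in replicates 1, 2 and 3. Without the block, the difference did not pass (log2 fold change 0.87 ± 0.49, edgeR adjusted p = 0.408, and 0.93 ± 1.24, adjusted p = 0.859). With it, 0.81 ± 0.17 (edgeR adjusted p = 0.0170) and 0.93 ± 0.19 (adjusted p = 0.0273) passed the threshold. On replicates 1 and 2 alone, Cxcr4 passed in untreated (0.97, edgeR adjusted p = 0.0308) but not in LPS-treated cells (0.92, adjusted p = 0.102).

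Ccr7 was lower in CD18ΔCD11c in all 6 pairs, yet neither edgeR nor DESeq2 called it. The ratio was 0.824, 0.632 and 0.829 in untreated and 0.696, 0.464 and 0.985 in LPS-treated cells in replicates 1, 2 and 3, so that the last pair was almost level. The log2 fold change was -0.41 ± 0.98 (edgeR adjusted p = 0.870) untreated and -0.65 ± 0.35 (adjusted p = 0.617) after LPS, and the block gave -0.35 ± 0.16 (adjusted p = 0.149) and -0.58 ± 0.21 (adjusted p = 0.128). Replicates 1 and 2 alone gave -0.40 (edgeR adjusted p = 0.208) and -0.85 (adjusted p = 0.0626).

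Fscn1 was 0.495, 0.557 and 0.691 times as high in untreated CD18ΔCD11c as in CD18fl/fl BMDCs, and after LPS the ratio was 0.730, 1.76 and 1.14. Hence the untreated pairs agreed in direction and the LPS pairs did not. With the block, the untreated difference of -0.74 ± 0.15 passed (edgeR adjusted p = 0.0173), whereas without it -0.87 ± 1.26 did not (adjusted p = 0.769). It also passed on replicates 1 and 2 alone (-0.86, edgeR adjusted p = 0.0456). After LPS, the value was 0.12 ± 0.30 (edgeR adjusted p = 0.927), and the block gave 0.16 (adjusted p = 0.707).

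Ccr2 and Cx3cr1 showed no call between the genotypes in edgeR without or with the block. Ccr2 was higher in CD18ΔCD11c in 5 of 6 pairs, but the ratio ranged from 1.05 to 3.14 untreated and from 0.297 to 11.6 after LPS, when few reads remained (46 to 419 per library). Its log2 fold change was 0.28 ± 0.92 (edgeR adjusted p = 0.909) untreated and 0.78 ± 0.82 (adjusted p = 0.812) after LPS. Cx3cr1 was lower in all 3 untreated pairs (0.328, 0.528 and 0.395 times), without overlap of the groups, with a log2 fold change of -1.13 ± 0.54 (edgeR adjusted p = 0.343), and the block gave -1.22 ± 0.37 (adjusted p = 0.0521). DESeq2 with the block, a fit added after seeing the data, called Ccr2 (adjusted p = 0.0446) and Cx3cr1 (adjusted p = 0.0266) in untreated cells. That fit called 3293 of 12876 genes (1876 higher and 1417 lower). After LPS, the ratios of Cx3cr1 lay on both sides of 1 (0.587, 1.36 and 1.27).

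**Figure D3:**
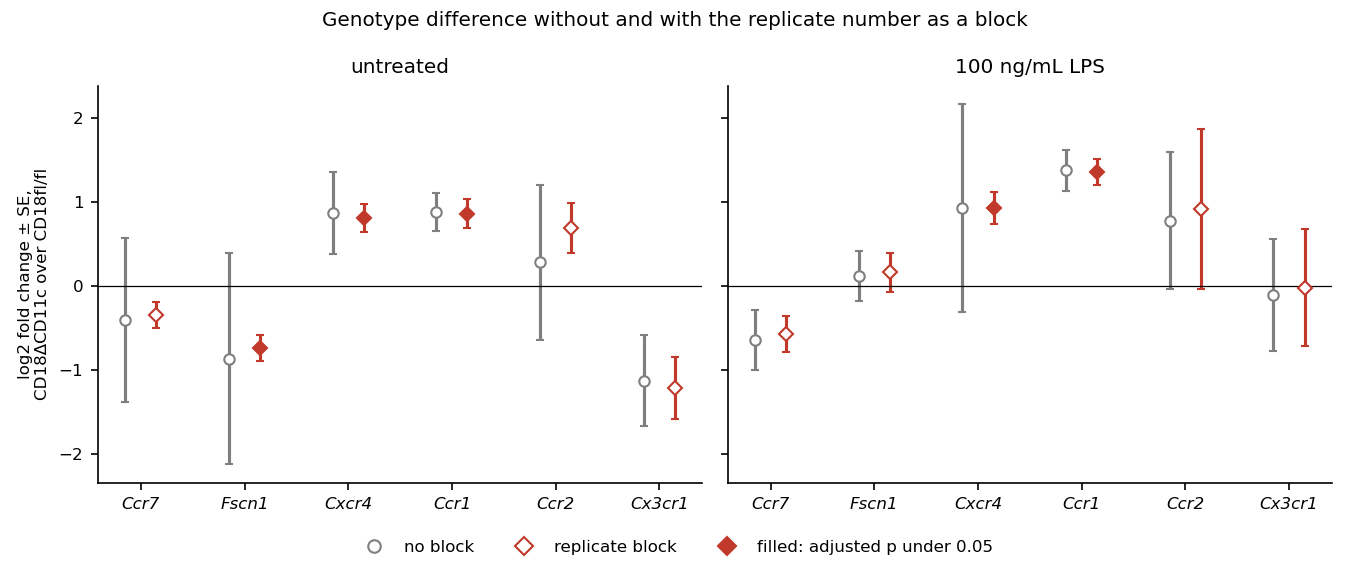
Log2 fold change ± SE of CD18ΔCD11c over CD18fl/fl BMDCs for each gene, untreated (left) and after LPS (right), without (grey circles) and with the replicate block (red diamonds, filled where the adjusted p is under 0.05). The block leaves the estimates of Ccr1 and Cxcr4 in place (0.86 and 0.81 untreated, 1.36 and 0.93 after LPS) and narrows their errors.

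Whether LPS acted differently in the genotypes was tested as an interaction over all 12 libraries. No gene of 13752 was called by edgeR without the block (97 at an unadjusted p under 0.05) or with it (272), and DESeq2 called 1 gene without and 4 with the block, none of them among the 6. Ccr1 had a log2 difference of 0.58 ± 0.32 (edgeR, unadjusted p = 0.0956) without the block and 0.58 ± 0.26 (unadjusted p = 0.0485) with it, with an adjusted p of 1 in both fits. These fits do not show that the genotypes respond alike, since the difference for Ccr7 had a standard error of 1.13 and that for Cxcr4 of 1.47 on the log2 scale.

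Among 20 other chemokine receptor genes, 9 passed the filter in CD18fl/fl BMDCs, and LPS raised 1 of them, beside 2.06% of all genes called higher. Ccr4, the receptor for CCL17 and CCL22, rose from 1.08, 0.652 and 2.70 to 20.9, 27.8 and 47.5 CPM (log2 fold change 4.45 ± 0.63, edgeR adjusted p = 0.0189). In CD18ΔCD11c BMDCs, at most 1.79 CPM stood against 11.3, 13.5 and 31.8 CPM (4.18 ± 0.93, adjusted p = 0.0541, and 0.00470 with the block in edgeR). The median log2 fold change of the list was 2.28 in CD18fl/fl, beside -0.02 over all genes, and 0.71 over 8 genes in CD18ΔCD11c BMDCs, beside -0.01.

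With the replicate block, 2 further receptors of this list were called higher after LPS in both genotypes, beside 6.33% of all genes in CD18fl/fl and 10.2% in CD18ΔCD11c BMDCs. Ccrl2, an atypical receptor that presents chemerin, had 35.9, 28.8 and 5.10 CPM untreated and 245, 273 and 62.2 CPM after LPS in CD18fl/fl BMDCs. The replicate 3 libraries lay lowest in both states, and every pair was higher after LPS. Its log2 fold change under the block was 3.21 ± 0.27 (edgeR adjusted p = 0.00458) in CD18fl/fl and 2.69 ± 0.19 (adjusted p = 0.00106) in CD18ΔCD11c BMDCs, compared with an adjusted p of 0.0910 and 0.117 without it. Cxcr5, which guides cells to B cell follicles through CXCL13, had 2.25, 4.69 and 1.79 CPM untreated and 17.3, 23.4 and 5.11 CPM after LPS in CD18fl/fl BMDCs, with 2.27 ± 0.36 (edgeR adjusted p = 0.0152) and 1.43 ± 0.34 (adjusted p = 0.0275) under the block in the 2 genotypes. Between the genotypes, the block called Cmklr1 lower in untreated (-0.64, edgeR adjusted p = 0.0433) and Ccr4 lower in LPS-treated CD18ΔCD11c BMDCs (-0.86, adjusted p = 0.0242), and no other receptor of the list. Of all genes, 8.16% and 3.16% were called lower in these 2 states. Ccr6, the receptor for CCL20, had at most 1.35 CPM in any library (log2 fold change after LPS -2.70 ± 1.30 in CD18fl/fl BMDCs, edgeR adjusted p = 0.256).

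**Figure D4:**
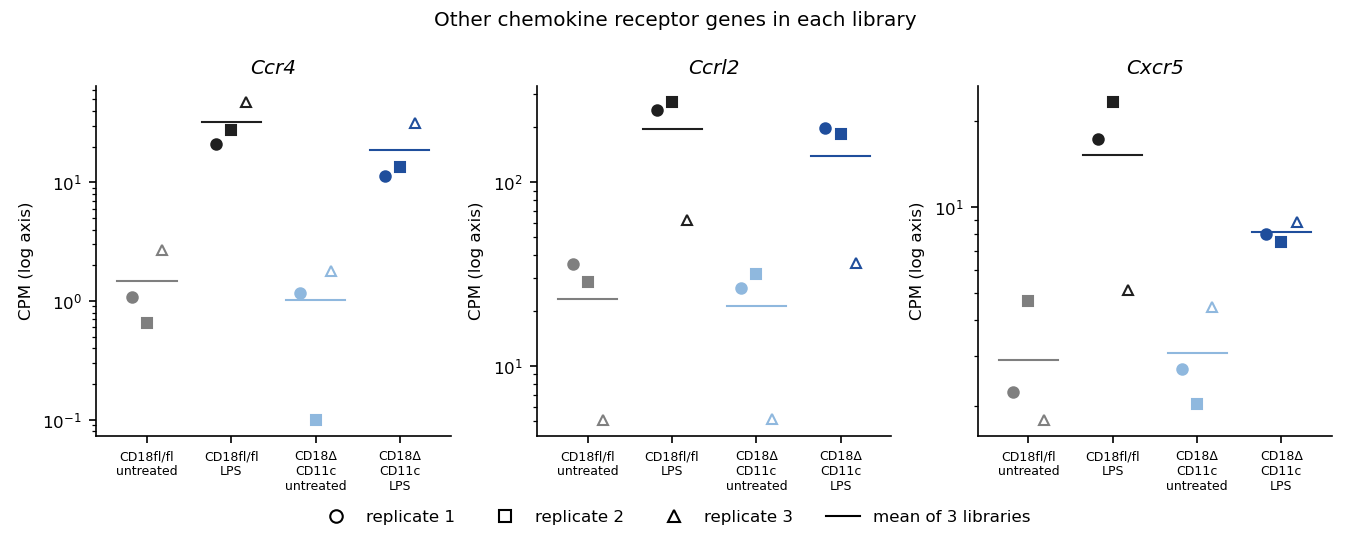
CPM (log axis) of Ccr4, Ccrl2 and Cxcr5 in the 12 libraries, with replicates as symbols and group means as lines. Ccr4, Ccrl2 and Cxcr5 lie higher in every LPS library than in any untreated library of the same genotype. Of all tested genes, 13.6% in CD18fl/fl and 14.8% in CD18ΔCD11c BMDCs lay higher after LPS without overlap.

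Of 15 ligand genes of the receptors, 10 had a group mean above 1 CPM. The CCR7 ligands were not among these, as Ccl19 had no read in 10 of the 12 libraries and at most 0.324 CPM, and Ccl21a had no read at all, which allows up to 0.135 CPM. The CXCR4 ligand Cxcl12 reached at most 0.409 CPM. Without the block, LPS gave no call of a ligand gene (9 of 10 log2 fold changes above 0 in each genotype, median 1.12 in CD18fl/fl and 0.66 in CD18ΔCD11c BMDCs). With it, Ccl5, which binds CCR1, rose and Ccl6, a mouse ligand of CCR1, fell in both genotypes. Of all genes, the block called 6.33% higher and 6.43% lower in CD18fl/fl, and 10.2% and 9.93% in CD18ΔCD11c BMDCs.

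Ccl5 had 975, 1035 and 88.9 CPM in untreated and 7219, 8605 and 3464 CPM in LPS-treated CD18fl/fl BMDCs. In CD18ΔCD11c BMDCs, it had 637, 1104 and 100.2 CPM and 4287, 5522 and 2646 CPM, respectively. All 6 pairs were higher after LPS, by 3.71 ± 0.54 (edgeR adjusted p = 0.0126) and 3.18 ± 0.49 (adjusted p = 0.00701) on the log2 scale with the block. Ccl6 had 1465, 1263 and 11062 CPM in untreated and 306, 368 and 6995 CPM in LPS-treated CD18fl/fl BMDCs. It thus was far higher in replicate 3 in either state, and lower after LPS in all 6 pairs (-1.57 ± 0.34, edgeR adjusted p = 0.0365, and -1.09 ± 0.29, adjusted p = 0.0427, with the block).

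Between the genotypes, the block called Ccl6, Ccl9, Ccl2 and Ccl7 higher and Cx3cl1 lower in untreated CD18ΔCD11c BMDCs, and Ccl6 and Ccl9 higher and Ccl5 and Cx3cl1 lower after LPS. The shares of all genes were 12.1% higher and 8.16% lower in untreated cells, and 6.98% and 3.16% after LPS. Ccl9, another ligand of CCR1, had 770, 676 and 1834 CPM in untreated CD18fl/fl and 1482, 1854 and 7145 CPM in untreated CD18ΔCD11c BMDCs. After LPS, it had 341, 541 and 2722 CPM and 1068, 1068 and 9865 CPM. The genotype difference under the block was 1.51 ± 0.22 (edgeR adjusted p = 0.00563) and 1.47 ± 0.19 (adjusted p = 0.00874) for Ccl9, and 1.07 ± 0.20 (adjusted p = 0.0121) and 1.52 ± 0.16 (adjusted p = 0.00641) for Ccl6, in all 6 pairs each. Cx3cl1, the ligand of CX3CR1, was lower in all 6 pairs (-0.94 ± 0.16, edgeR adjusted p = 0.00877, and -0.70 ± 0.15, adjusted p = 0.0338). Ccl2 and Ccl7, which bind CCR2, differed by 0.96 ± 0.15 (edgeR adjusted p = 0.00737) and 1.42 ± 0.35 (adjusted p = 0.0305) in untreated cells, and Ccl5 by -0.62 ± 0.14 (adjusted p = 0.0336) after LPS. The other ligand genes above 1 CPM, Ccl3, Ccl8, Ccl12 and Mif, had no call in any of these comparisons, with highest library values of 177, 3.20, 8.48 and 236 CPM.

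**Figure D5:**
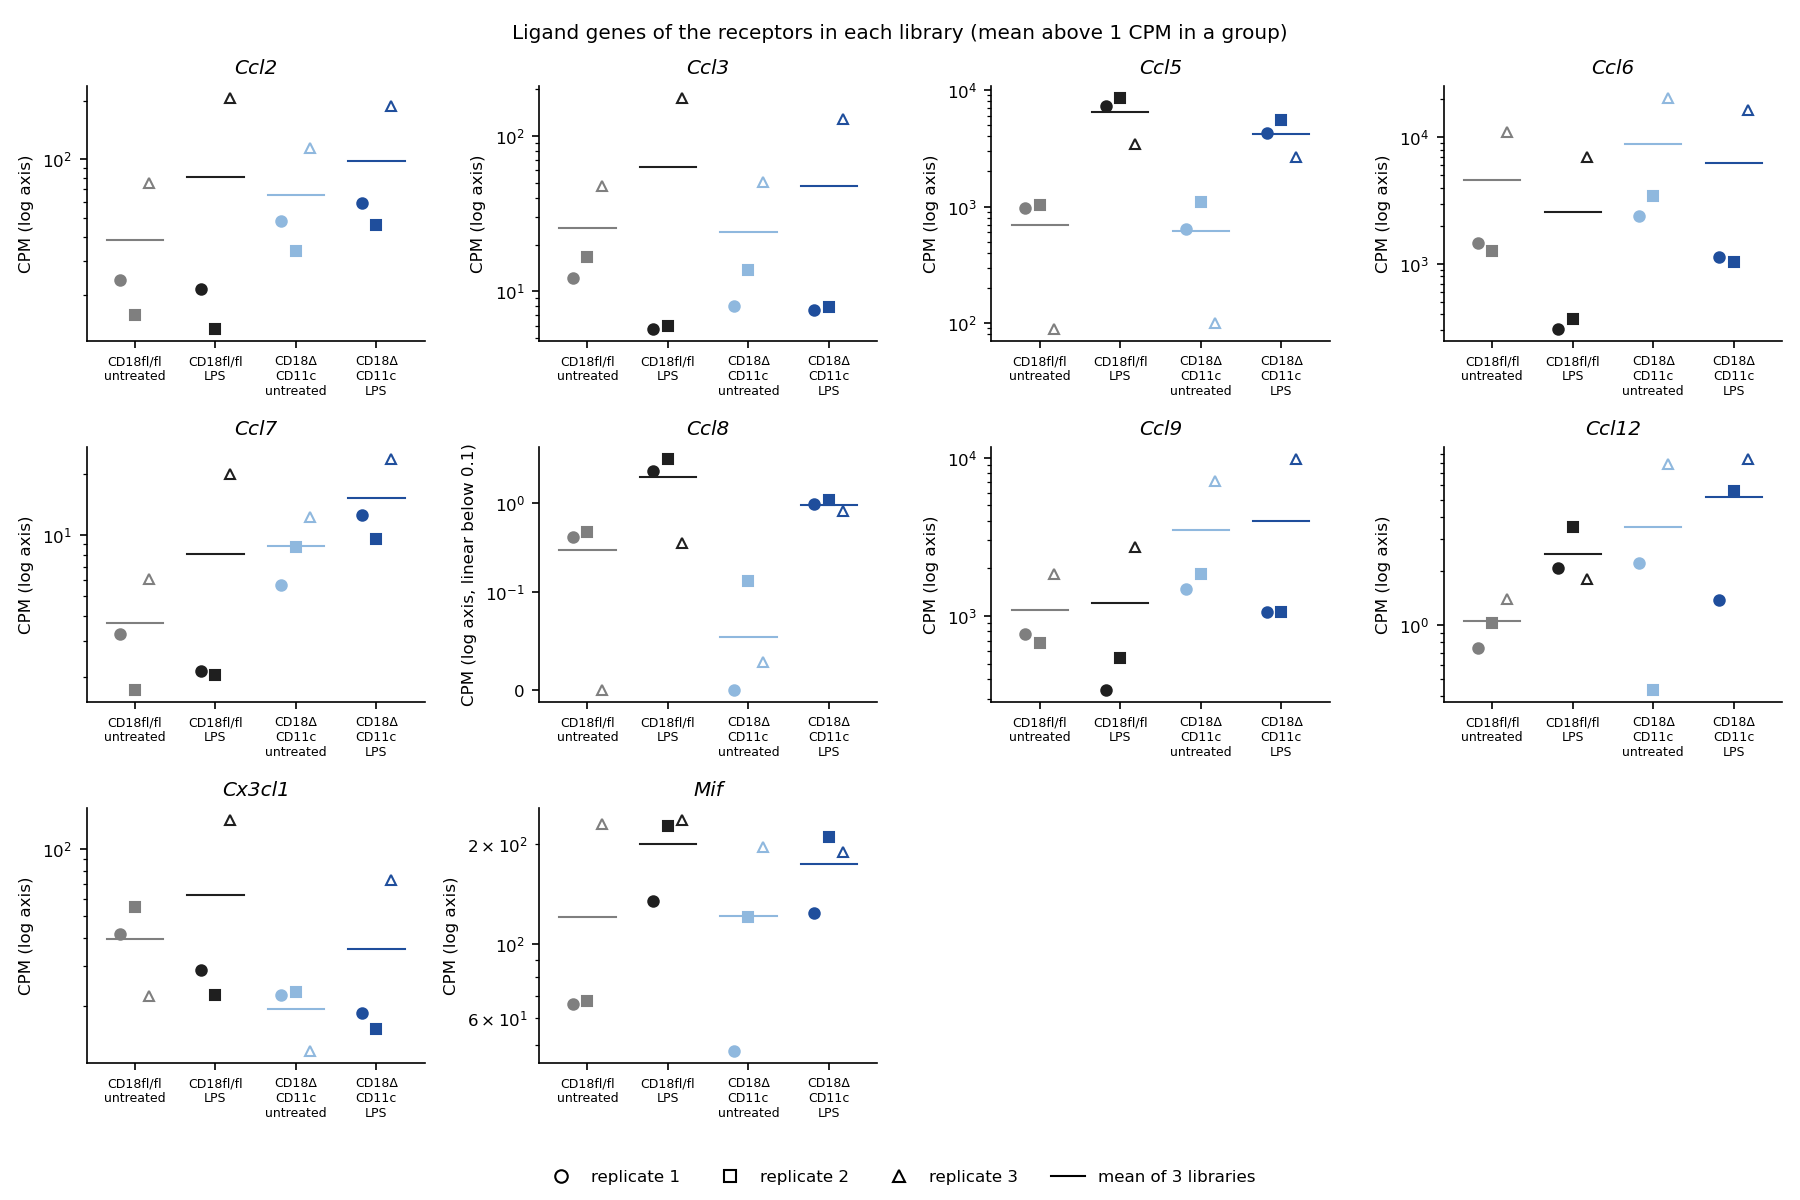
CPM (log axis; for Ccl8 linear below 0.1) of the 10 ligand genes with a mean above 1 CPM in a group, in the 12 libraries by group, with replicates as symbols and means as lines. Ccl5 is higher after LPS in all 6 pairs, and Ccl6 and Ccl9 are higher in CD18ΔCD11c in all 6 pairs, with the replicate 3 libraries far above the others.

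Of 29 genes for signaling and desensitization of these receptors, LPS lowered 3 and raised 0 in CD18fl/fl BMDCs (median log2 fold change -0.49, beside -0.02 over all genes). Of all genes, 1.83% were called lower and 2.06% higher there. These were Rgs18 (-3.27 ± 0.33, edgeR adjusted p = 0.0127) and Rgs14 (-2.17 ± 0.44, adjusted p = 0.0464), which speed up the switching off of G protein α subunits, and the G protein subunit gene Gng2 (-2.43 ± 0.27, adjusted p = 0.0138). In CD18ΔCD11c BMDCs, Rgs18 (-2.74, edgeR adjusted p = 0.0253) and Rgs14 (-2.19, adjusted p = 0.0237) were called, and Gng2 was called there only with the block (edgeR adjusted p = 0.00922). The genes with the smallest adjusted p in the upward direction, Pik3r5, a regulatory subunit of PI3 kinase γ, and Rgs1, had values of 1.47 (adjusted p = 0.0633) and 2.11 (adjusted p = 0.172) without and were called with the block in both genotypes. Between the genotypes, edgeR called 0 of them without the block. With it, 4 were higher (Rgs18, Rgs2, Rgs10 and Rhoa) and 5 lower (Vav1, Arrb1, Gnai2, Plcb2 and Arrb2) in untreated CD18ΔCD11c BMDCs, and 3 were higher (Rgs2, Grk5 and Rgs18) and 2 lower (Vav1 and Gnai2) after LPS. The block called 12.1% of all genes higher and 8.16% lower in untreated cells, and 6.98% and 3.16% after LPS. Rgs2, another regulator of G protein signaling, differed by 0.64 ± 0.15 (edgeR adjusted p = 0.0226) untreated and 1.15 ± 0.18 (adjusted p = 0.0127) after LPS under the block. Grk5, a kinase that desensitizes receptors, differed by 1.76 ± 0.28 (adjusted p = 0.0139) after LPS. The inhibitory G protein gene Gnai2 differed by -0.57 ± 0.15 (edgeR adjusted p = 0.0364) and -0.60 ± 0.13 (adjusted p = 0.0327), and the exchange factor gene Vav1 by -0.77 ± 0.17 (adjusted p = 0.0216) and -0.85 ± 0.17 (adjusted p = 0.0252). For Rgs18, the levels were 44.2, 28.8 and 29.4 CPM in untreated CD18fl/fl and 109, 65.4 and 102 CPM in untreated CD18ΔCD11c BMDCs, and 3.50, 4.46 and 2.67 CPM against 10.9, 9.43 and 21.7 CPM after LPS. The difference was called with the block (1.48 ± 0.17, edgeR adjusted p = 0.00318, and 1.89 ± 0.39, adjusted p = 0.0283) and not without it (adjusted p = 0.10 and 0.298).

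Among 14 genes tied to the expression and function of CCR7, LPS raised 2 and lowered 0 in each genotype without the block, beside 2.06% and 2.23% of all genes called higher. With it, 5 were higher and 1 lower in CD18fl/fl (Cd37, -2.03 ± 0.47, edgeR adjusted p = 0.0419). In CD18ΔCD11c BMDCs, 4 were higher and 1 lower. Of all genes, the block called 6.33% and 10.2% higher and 6.43% and 9.93% lower in the 2 genotypes. Ptgs2, the cyclooxygenase that makes the precursor of prostaglandin E2, rose from 8.35, 4.79 and 0.882 to 342, 545 and 400 CPM in CD18fl/fl BMDCs (6.52 ± 0.86, edgeR adjusted p = 0.0162) and by 6.87 ± 0.70 (adjusted p = 0.0115) in CD18ΔCD11c BMDCs. The nuclear receptor gene Nr4a3 rose by 1.99 ± 0.30 (adjusted p = 0.0221) and 1.65 ± 0.28 (adjusted p = 0.0303). These genes rose in replicates 1 and 2 too, in which Ccr7 itself differed little. St8sia4, whose product adds polysialic acid to CCR7, had values of 1.65 (edgeR adjusted p = 0.0672) and 1.56 (adjusted p = 0.0833), and both passed with the block (adjusted p = 0.0459 and 0.00282). The median over the list was 0.55 in CD18fl/fl and 0.54 in CD18ΔCD11c BMDCs. Between the genotypes, 12 of the 14 log2 fold changes were below 0 in untreated and in LPS-treated cells, with a median of -0.41 and -0.60, beside -0.05 and -0.11 over all genes. Without the block edgeR called 0 of them, and with it 2 were called lower in each state, Mmp14 and Cd37 in untreated and Ptgs2 and Il4i1 in LPS-treated cells. Of all genes, 8.16% and 3.16% were called lower with the block in these states.

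Of 28 genes known from migratory dendritic cells, LPS raised 2 in CD18fl/fl, Cd40 (3.54 ± 0.48, edgeR adjusted p = 0.0164) and Cd200 (3.13 ± 0.50, adjusted p = 0.0272), and 3 in CD18ΔCD11c BMDCs, where Cd274 joined them (2.31 ± 0.41, adjusted p = 0.0342). None was called lower, and of all genes 2.06% and 2.23% were called higher in the 2 genotypes. Cd40, a costimulatory receptor, went from 60.8, 40.4 and 19.96 CPM to 389, 410 and 610 CPM in CD18fl/fl BMDCs, so that it was higher after LPS in all 3 replicates and rose most in replicate 3. With the block, 7 were called higher and 1 lower in CD18fl/fl and 8 higher and 1 lower in CD18ΔCD11c BMDCs. Of all genes, 6.33% and 10.2% were called higher and 6.43% and 9.93% lower. The gene called lower in CD18fl/fl was Slco5a1 (-4.01 ± 0.68, edgeR adjusted p = 0.0188 with the block and 0.123 without it). The median was 0.30 and 0.34 without the block. Between the genotypes, the block called 5 higher and 3 lower in untreated and 2 higher and 1 lower in LPS-treated cells, and Ccl17, which encodes a ligand of CCR4, had the largest differences of these (3.71 ± 0.30, edgeR adjusted p = 0.00298, and 1.82 ± 0.21, adjusted p = 0.00663). Of all genes, 12.1% and 6.98% were called higher and 8.16% and 3.16% lower in these fits. Next in the lower direction, Laptm4b (-0.84 ± 0.68, edgeR adjusted p = 0.489) and Apol7c (-2.04 ± 1.80, adjusted p = 0.526) were not called for LPS in CD18fl/fl BMDCs. Apol7c had the low replicate 3 that Ccr7 and Fscn1 showed at rest, with 818, 603 and 0.454 CPM in untreated and 226, 105 and 13.6 CPM in LPS-treated CD18fl/fl BMDCs.

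Of 19 other genes for actin bundling and filopodia, 16 were tested, and none was called for LPS in either genotype in edgeR without the block. The smallest adjusted p in CD18fl/fl BMDCs belonged to Evl (-1.49, adjusted p = 0.224), which promotes filament elongation. With the block, Evl was called lower (-1.89, adjusted p = 0.0142) and the filopodial motor gene Myo10 higher (1.43, adjusted p = 0.0216) in CD18ΔCD11c BMDCs, where 9.93% of all genes were called lower and 10.2% higher. In untreated cells, 15 of the 16 log2 fold changes between the genotypes were below 0 (median -0.37, beside -0.05 over all genes), and with the block Lasp1, Msn and Diaph2 were called lower along with Fscn1. The block called 8.16% of all genes lower in untreated cells. After LPS, 12 of the 16 log2 fold changes between the genotypes were below 0 (median -0.38, beside -0.11 over all genes). None of them was called in edgeR, without or with the block.

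The genes most like each of the 6 were sought by Pearson's r of log2 CPM over the 12 libraries among 13746 genes, which is a description, since the libraries share treatments, genotypes and replicate numbers. Ccr7 ran most closely with Cacnb3 (r = 0.97), Atmin (r = 0.97) and the NF-κB gene Relb (r = 0.96), and Fscn1 with Bmf (r = 0.96), Mmp25 and Cacnb3 (r = 0.95 each). Ccr1 ran with Ccdc115, Ptpn18 (r = 0.98 each) and Npm1 (r = 0.96), and Ccr2 with Arhgap4, Hnrnpf and Klhl6 (r = 0.97 each). For Cxcr4, these were Dctn2, Ddx52 and Pop5 (r = 0.98 each). Cx3cr1 had the loosest likeness, with Mbtps1 (r = 0.90), Rnf103 and Tysnd1 (r = 0.89 each). Cacnb3, a calcium channel subunit, was thus the gene shared by Ccr7 and Fscn1.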

How the data were processed

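Poly(A) RNA of 12 BMDC samples (4 groups of 3 libraries) was sequenced by the authors as 59-base single-end reads, with a kit that does not mark strand, and mapped and counted with CLC Genomics Workbench 22.0 at default settings. The deposited values used here were raw counts of total gene reads for 41709 genes per library. The study's methods name GRCm39, which the deposited coordinates match, whereas the submitters' processing notes list GRCm38. The promoters came from RefSeq's GRCm38.p6 table.

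Counts were tested with edgeR 4.0.16 in R 4.3.3 (quasi-likelihood test, TMM, filterByExpr with a minimum count of 10, Benjamini-Hochberg over all genes, threshold 0.05), within the 6 libraries of each comparison and over 12 for the interaction. The standard error is the log2 fold change divided by the root of F. A run on simulated counts checked only that the fits return the median size of known changes. It set no condition on false calls and does not bear on the calls given here. Same-numbered libraries deviated together in every pair (r between 0.262 and 0.745 for the deviations from the group means), so the replicate number was also fitted as a block. Replicates 1 and 2 also deviated together across numbers. In the LPS comparison of CD18fl/fl, r was 0.331 and 0.286 across numbers 1 and 2, above the 0.262 of the libraries numbered 2. In the other comparisons, the same-numbered r were the higher ones. The pairing within replicates 1 and 2 is thus less sure than the split of replicate 3. Alternatives were RLE and library-size scaling, DESeq2 1.42.0, no filter, unique reads, exon reads, an exon length offset, replicates 1 and 2 alone, libraries left out in turn and all 12 libraries. No pair of libraries agreed within sampling noise (chi-squared per degree of freedom at least 46.6 in 66 pairs).

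The 6 genes and the gene lists were chosen with earlier results of these data known. Named from the lists are ligands with a mean over 1 CPM in a group and up to 3 genes a direction with the smallest adjusted p for LPS in CD18fl/fl. Further genes behind small counts of calls (Ccl17, Mmp14, Il4i1, Myo10, Lasp1, Msn, Diaph2, Rgs2, Rgs10, Rhoa, Vav1, Arrb1, Arrb2, Gnai2, Plcb2, Grk5) were named after their values were seen. The result for a further receptor gene of the list is not reported here.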

Additional observations from a re-analysis of the deposited data

How the results depend on the processing

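With single libraries left out, between 0 and 3268 genes and 0 and 3 of the 6 genes were called for LPS in CD18fl/fl, and between 0 and 1033 genes and 0 and 2 of the 6 in CD18ΔCD11c BMDCs. Between the genotypes, these were 0 to 0 genes untreated and 0 to 1 after LPS. Over these fits the log2 fold change spanned 0 for Ccr7 after LPS (-0.079 to 0.77 in CD18fl/fl, -0.29 to 0.70 in CD18ΔCD11c), Fscn1 after LPS in CD18ΔCD11c (-0.053 to 1.07), Ccr7 and Ccr2 between untreated genotypes (-0.92 to 0.11 and -0.25 to 0.73), Cx3cr1 and Fscn1 between LPS-treated genotypes (-0.43 to 0.37 and -0.069 to 0.40), and Ccr7, Ccr2 and Cxcr4 in the interaction (-0.67 to 0.34, -0.0074 to 1.25 and -0.74 to 0.68).

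In CD18fl/fl, LPS called 1966 genes with DESeq2, 1627 with the replicate block, 1738 with the block and a length offset, 6140 with replicates 1 and 2 alone, 1068 with all 12 libraries and 3269 with DESeq2 and the block (added after seeing the data), and of the 6 genes 5 with replicates 1 and 2 alone and 4 with DESeq2 and the block. In CD18ΔCD11c, the counts were 1681, 2560, 2569, 2049, 983 and 3539 in the same order and 805 with no filter, and RLE left 1 of the 6 genes. Between untreated genotypes they were 846, 2606, 1608, 1383, 19 and 3293 genes, and of the 6 genes 1 with DESeq2, 3 with the block, 3 with the length offset, 3 with replicates 1 and 2 alone and 5 with DESeq2 and the block. After LPS they were 313, 1262, 933, 523, 45 and 1959 genes and 1 with no filter, and of the 6 genes 1, 2, 2, 1, 1 and 2. In the interaction, DESeq2 called 1 gene and 4 with the block. In edgeR, the block changed no other call of the 6 genes. In DESeq2, it added Cxcr4 for LPS in CD18fl/fl, Ccr2, Cxcr4, Cx3cr1 and Fscn1 between untreated genotypes and Cxcr4 between LPS-treated genotypes.

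Directions turned for Fscn1 after LPS in CD18fl/fl (block 0.17, with length offset 0.20, DESeq2 and block 0.21), for Ccr7 and Fscn1 after LPS in CD18ΔCD11c on replicates 1 and 2 (-0.26 and -0.11), for Ccr2 between untreated genotypes under library-size scaling (-0.12), for Ccr2 (-0.20, replicates 1 and 2), Cx3cr1 (0.17 unique reads, 0.15 length offset, 0.013 DESeq2 and block) and Fscn1 (-0.15, library-size scaling) between LPS-treated genotypes, and in the interaction for Ccr7 (0.020 block, 0.078 length offset), Ccr2 (-0.37) and Cxcr4 (-0.0073, replicates 1 and 2 both). None of these values passed the threshold, and the cause was not tested. Library-size scaling moved the median of all genes to -0.32, -0.23, -0.44 and -0.37 in the 4 comparisons. With Spearman's rho, 0 of the 3 genes most like Ccr7, Ccr2, Cxcr4 and Fscn1 and 1 of those most like Ccr1 and Cx3cr1 were shared. The depth limits Cx3cr1 and, after LPS, Ccr2.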
